A study of Mus musculus with 12 samples.

Results

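The 2147 genomic intervals described here are those in which the signal of Alkbh5-knockout mouse embryonic stem cells was at least 2-fold below that of wild-type cells. They come from a study of N6-methyladenosine (m6A) in chromatin-associated RNA, the RNA that stays bound to chromatin when cells are fractionated. The mutant genotypes were Alkbh5 del-cIDR (ΔcIDR), read here as a deletion of a disordered region of ALKBH5, and an Alkbh5 knockout (KO), set against wild type (WT). All cells were of the E14TG2a embryonic stem cell line and were grown with serum, LIF and the inhibitors PD0325901 and CHIR99021. There were 2 libraries per genotype among the 6 used. Both KO columns are named KO6, so they may come from 1 line, and the KI columns were assigned to ΔcIDR because no other genotype remained. The submitters describe the table as a normalized m6A matrix, so its columns were taken as immunoprecipitated. In all 6 libraries, however, reads of the unmodified spike-in outnumbered those of the m6A spike-in.

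The members were selected on the KO and WT values themselves. An interval had to lie on an autosome, reach a WT mean of at least 1 on a reads-per-million scale over interval reads (RPM), have both KO values below both WT values, and have a KO mean at least 1 unit below the WT mean on the log2(RPM + 0.1) scale. Of 74299 intervals on the GRCm39 assembly 67893 were autosomal, and 32604 of those reached the WT level and are called comparable intervals below. The 2147 members are 6.59% of the comparable intervals, and the remaining 30457 are called the other intervals. Because the KO and WT libraries chose the members, every KO against WT value below is a description with no test. Input columns were not used here, so a lower signal can come from less m6A, less RNA or fewer gene copies, and these cannot be told apart. In these bulk samples fewer cells making an RNA and less RNA per cell cannot be told apart either. Gene lists, stem cell markers and the level of Alkbh5 were not used here, since the tables carry no gene names.

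m6A is a methyl mark that a writer complex places on adenosines of nascent RNA and that reader proteins bind. ALKBH5 is a demethylase that removes it. Chromatin-associated RNA includes nascent transcripts, enhancer and promoter RNAs, and transcripts of repeats. In mouse embryonic stem cells m6A on RNA of endogenous retroviruses and of LINE-1 (L1) has been tied to the control of these elements and of chromatin around them. The ERVK family includes the intracisternal A particle, ERV1 is a second group of retroviral elements with long terminal repeats, and ERVL includes MERVL, which is known for its expression in the early embryo.

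Members were weakly covered intervals. Their median level was 3.11 and 2.77 RPM in the ΔcIDR libraries, 1.02 and 1.10 RPM in the KO libraries and 2.95 and 3.21 RPM in the WT libraries. Every KO median was below every ΔcIDR and WT median, and the ΔcIDR and WT medians overlapped. The other intervals had medians of 7.31 and 6.80 RPM in ΔcIDR, 8.39 and 8.60 RPM in KO and 7.63 and 8.14 RPM in WT. Members held 2.50% and 2.39% of all interval reads in ΔcIDR, 0.869% and 0.891% in KO and 2.16% and 2.24% in WT. The libraries held between 13234793 and 15145206 interval reads. The median member therefore rested on 45 and 42 reads in ΔcIDR, 15 and 15 in KO and 39 and 43 in WT.

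**Figure D1:**
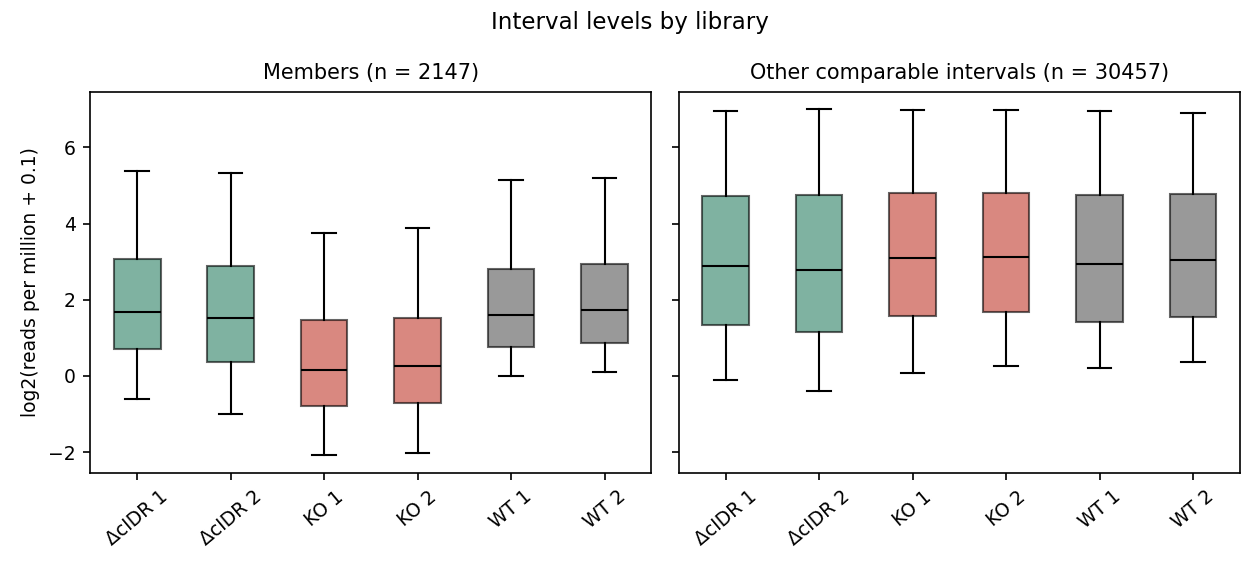
Level of each interval in each library, as log2(RPM + 0.1), for the 2147 members (left) and the 30457 other intervals (right). Boxes span the quartiles with the median as a line, and whiskers reach the 5th and 95th percentiles. The KO boxes of the members sit below the ΔcIDR and WT boxes, as the rule sets, and the ΔcIDR boxes lie level with the WT boxes.

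Most falls in KO were smaller than 4-fold. The median member stood at −1.35 on the log2 scale in KO relative to WT, which is 0.392-fold, with quartiles of −1.72 and −1.14. A fall of at least 4-fold was reached by 328 members (15.3%), of at least 8-fold by 47 and of at least 16-fold by 5. KO reads summed over both libraries were fewer than 20 in 757 members and 0 in 6, so the size of the deepest falls is set by few reads. At the threshold itself, the 3 members just inside had differences of −1.001, −1.002 and −1.002, while the 3 intervals just outside had −0.99961, −0.9996 and −0.99949. Replicates of 1 genotype differed by at least 1 log2 unit in 256 members in ΔcIDR, 388 in KO and 147 in WT.

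The share of intervals that met the rule was lower at higher WT levels. Of comparable intervals between 1 and 2 RPM in WT, 671 of 5852 (11.5%) were members, against 47 of 3494 (1.35%) at 64 RPM or more. The strongest member in WT was chr3:96467813-96468414, which had no repeat family over 50% or more of its length. It had 1083 and 1162 RPM in ΔcIDR, 538 and 514 RPM in KO and 1134 and 1013 RPM in WT. The next strongest, chr4:123366287-123367645, had 958 and 1061 RPM in ΔcIDR, 450 and 494 RPM in KO and 1051 and 869 RPM in WT. In both intervals the ΔcIDR and WT libraries overlapped, and the KO differences from WT, −1.03 and −1.02 log2 units, were close to the threshold of the rule.

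Among the 10 deepest falls, 4 were ERVK intervals and 1 was ERV1. The deepest, chr12:21055420-21055722 on an ERVK locus of 420 bp, had 4.90 and 3.96 RPM in ΔcIDR, 0 and 0.294 RPM in KO and 5.29 and 10.6 RPM in WT. Its KO level rested on 4 reads in total. The second, chr9:38325586-38325805 on an ERVK locus of 627 bp, had 17.5 and 14.3 RPM in ΔcIDR, 0 and 0.147 RPM in KO and 4.99 and 4.71 RPM in WT. Here both ΔcIDR values were above both WT values, although the difference of 1.69 ± 0.43 (SE) log2 units had an adjusted p of 0.172 in limma. The member with the deepest fall at a high level was the ERV1 interval chr17:6844428-6846145, which covers most of a locus of 2045 bp. It had 235 and 209 RPM in ΔcIDR, 10.6 and 10.9 RPM in KO and 152 and 168 RPM in WT, a KO difference of −3.88 log2 units that rested on 304 KO reads.

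The 10 deepest falls included a pair of members without a repeat family on the same stretch of chromosome 13. The stronger, chr13:25386008-25386409, had 32.0 and 29.1 RPM in ΔcIDR, 0.273 and 0.661 RPM in KO and 14.7 and 13.4 RPM in WT. The weaker, chr13:25300640-25300842, had 2.55 and 1.52 RPM in ΔcIDR, 0 RPM in both KO libraries and 1.51 and 1.57 RPM in WT. With KO counted at the floor of 3 reads over the group and WT taken as measured, WT was 14.5-fold higher in the weaker interval. Repeat loci within 10 kb of these intervals and outside every interval were lower in KO as well, at −2.85 and −5.02 log2 units relative to WT.

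The ΔcIDR libraries took no part in choosing the members, although WT had to be high and KO low, so both comparisons below share chosen values. In ΔcIDR the members lay near WT. The median member differed from WT by −0.10 log2 units in ΔcIDR, with quartiles of −0.49 and 0.24, beside −0.13 over all 44396 intervals tested and −0.11 over the other intervals. Taken by library relative to the WT mean, the members' median was 0.025 and −0.20 in the ΔcIDR libraries and −1.42 and −1.35 in the KO libraries, so the sign of the small ΔcIDR difference depends on which ΔcIDR library is left out. In 1919 members (89.4%) the ΔcIDR mean was within 2-fold of the WT mean, against 95.3% of comparable intervals. Both ΔcIDR values were below both WT values in 609 members (28.4%), against 29.2% of comparable intervals, which is a share near the background. Both ΔcIDR values were above both WT values in 438 members (20.4%), against 13.1%.

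**Figure D2:**
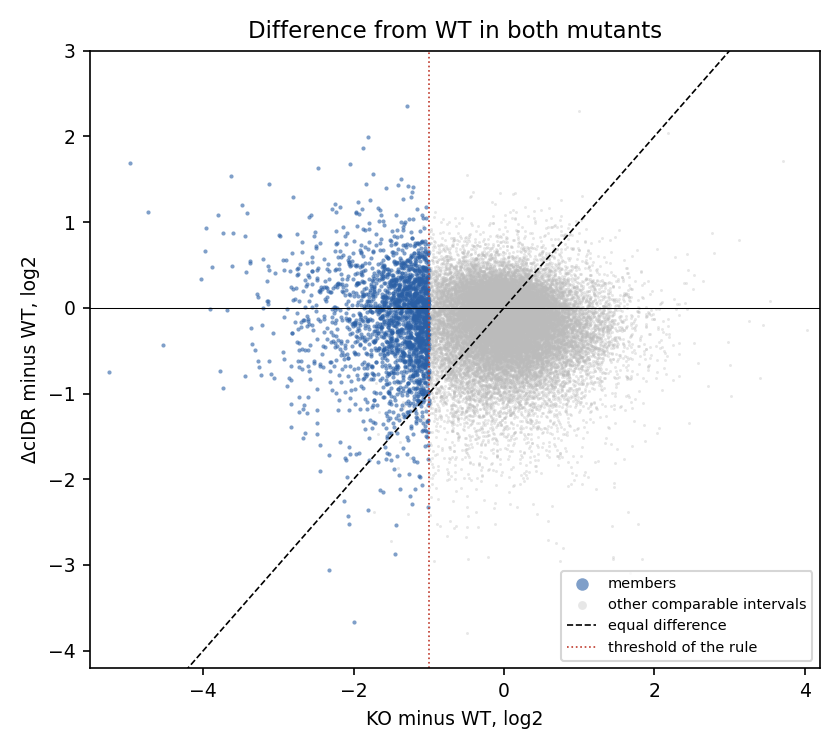
Difference from WT on the log2 scale in ΔcIDR (vertical axis) and in KO (horizontal axis) for members (blue) and other intervals (grey), with the rule's threshold as a dotted line and equal differences as a dashed line. Both axes share the WT libraries. Members lie left of −1 by rule and spread around 0 in ΔcIDR, with a median of −0.10.

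In the limma fit of all 6 libraries, with p-values adjusted over all 44396 intervals tested, 11 members were higher in ΔcIDR than in WT, beside 0.0541% of tested intervals. None was lower, beside 0.155% of tested intervals. At an unadjusted p below 0.05, limma had 153 members higher (7.13%), beside 2.59% of tested intervals, and 160 lower (7.45%), beside 8.57%. After adjustment edgeR called 27 members higher, beside 0.113% of tested intervals, and 0 lower, beside 0.0856%. With no filter on low levels, limma called 0 members higher, so none of the 11 calls held there. The count of 11 became 7 when ΔcIDR replicate 2 was left out, and 5 when either KO replicate was. It became 6 without WT replicate 1 and 7 when WT replicate 2 was left out, and the count of 0 lower became 8 without ΔcIDR replicate 1. The labels do not state that replicates came from separate cultures, so p-values measure only the spread between these samples.

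Among the 11 members called higher, 5 were ERV1, 2 were ERVK and 4 had no repeat family. The ERV1 calls include neighbours, chr2:150544653-150545526 and chr2:150545644-150546339, so the calls are not all separate sites. The family make-up of all tested intervals called higher is not given here. Those named next were picked after their values were seen. The ERV1 interval chr13:80851472-80853200 had 395 and 379 RPM in ΔcIDR, 65.2 and 70.4 RPM in KO and 180 and 187 RPM in WT. Its ΔcIDR level was 1.08 ± 0.10 (SE) log2 units above WT (limma, adjusted p = 0.0016). The ERVK interval chr9:13668927-13669139 had 175 and 215 RPM in ΔcIDR, 4.50 and 6.32 RPM in KO and 73.4 and 61.0 RPM in WT. It was 1.53 ± 0.18 (SE) log2 units above WT in ΔcIDR (limma, adjusted p = 0.0030) and −3.62 log2 units from WT in KO. KO and ΔcIDR lay on opposite sides of WT in every library, as the rule and the choice among members called higher set. A neighbouring pair on chromosome 14, chr14:32025262-32025621 and chr14:32026312-32027219, was called too, with differences of 1.56 and 1.44 log2 units. The first of that pair had an adjusted p of 0.0666 without WT replicate 1 and 0.208 with no filter, where the chr9 interval had 0.203.

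Against KO the ΔcIDR level was higher in most members, and the choice of members by low KO values largely sets this, so the counts against KO are given as a description. In ΔcIDR the median member was 1.32 log2 units above KO, or 2.50-fold, beside −0.21 over all intervals tested. Limma called 1255 members (58.5%) higher in ΔcIDR than in KO, beside 8.51% of tested intervals, and 0 lower, beside 14.2%. At an unadjusted p below 0.05 there were 2 lower in limma, beside 23% of tested intervals. EdgeR called 1389 higher, beside 12.2%, and 0 lower, beside 9.95%. Without KO replicate 1 the higher calls numbered 817, and without a ΔcIDR replicate there were up to 4 lower calls.

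A minority of members was low in ΔcIDR as well. In 164 members (7.64%) both ΔcIDR values were below both WT values and the ΔcIDR mean was at least 2-fold lower, against 4.09% of comparable intervals. They were weak, with a median WT level of 1.55 RPM, and 99 of them were below 2 RPM. L1 accounted for 64 of the 164 (39.0%), near its 43.1% of the 1333 comparable intervals that were as low in ΔcIDR. The lowest was the L1 interval chr13:90594987-90595187, with 0 RPM in both ΔcIDR libraries, 0.478 and 0.0735 RPM in KO and 1.13 and 1.20 RPM in WT. With ΔcIDR at the floor of 3 reads over the group and WT taken as measured, WT was 11.5-fold higher there. The fitted difference had an adjusted p of 0.113 in limma. In 49 members (2.28%) both ΔcIDR values were instead above both WT values with a mean at least 2-fold higher, against 0.273% of comparable intervals. Those 49 included 22 ERVK intervals, 17 without a repeat family, 8 ERV1 and 1 L1. The 89 comparable intervals that were as high in ΔcIDR, with the members among them, included 27 ERVK, 48 without a repeat family, 9 ERV1 and 2 L1.

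The difference between ΔcIDR and WT also varied with the level. Members between 1 and 2 RPM in WT had a median of −0.33 in ΔcIDR relative to WT, and those at 64 RPM or more had 0.20. Comparable intervals ran the same way, from −0.35 to 0.040 over those levels.

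More than 50% of the members had no repeat family over 50% of their length, and ERVK, ERV1, satellite and simple repeats took a larger share of members than of comparable intervals. Intervals without such a family numbered 1207 (56.2%), against 63.8% of comparable intervals, a gap that narrowed to 69.8% against 71.1% when 80% of the length had to be covered. L1 made up 313 members (14.6%), against 18.4%. ERVK made up 202 (9.41%), against 3.62%, simple and low-complexity repeats 120 (5.59%), against 2.37%, and satellites 77 (3.59%), against 1.09%. MaLR, a group of non-autonomous retroviral elements, made up 75 (3.49%), against 2.44%, and ERV1 made up 46 (2.14%), against 0.656%. Seen from the side of the families, 21.6% of comparable satellite intervals, 21.5% of ERV1, 17.1% of ERVK and 5.22% of L1 intervals were members. All comparable intervals of these families, members included, had median KO differences from WT of −0.39, −0.21, −0.26 and 0.059 log2 units. Over the comparable intervals of every kind the median was −0.0065. ERVL was the reverse, with 17 members (0.792%), against 3.82% of comparable intervals, so 1.37% of its intervals were members. Structural RNA repeats had 0 members of 22 comparable intervals, and MIR and L2 had 0 of 12. With so few intervals, 0 cannot be set apart from the 6.59% of all comparable intervals that were members. No family share was tested.

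**Figure D3:**
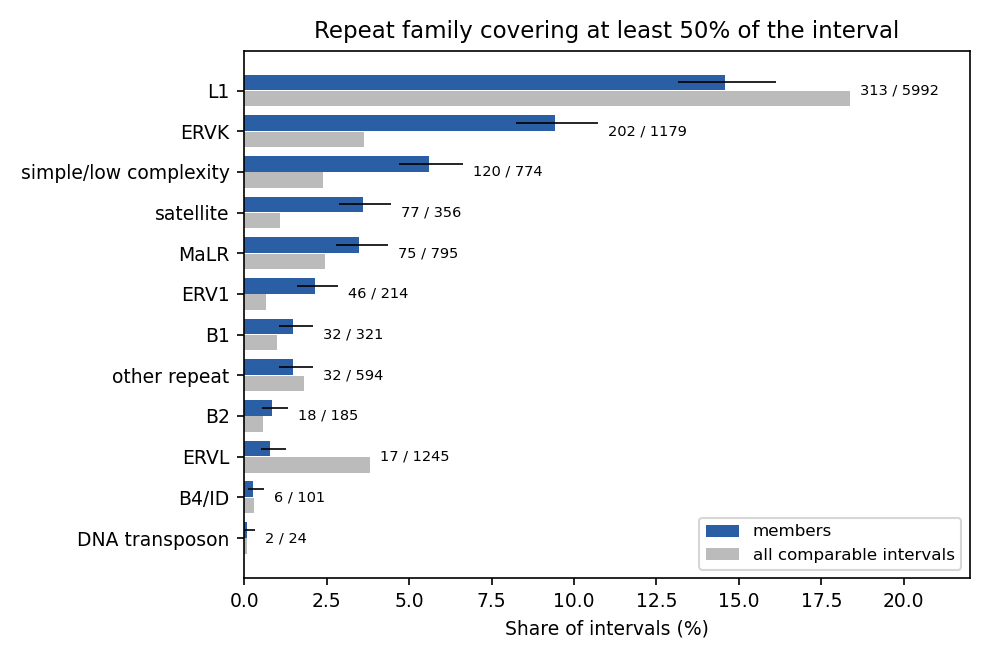
Share of intervals with at least 50% of their length in loci of 1 repeat family, for members (blue, with Wilson 95% intervals that cover counting error only) and all comparable intervals (grey). Numbers give members over comparable intervals of the family. The member bar is longer than the comparable bar for ERVK, satellite, simple/low-complexity and ERV1, and shorter for L1 and ERVL.

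ERVK members lay mostly on short loci, as comparable ERVK intervals did. The members' median locus was 615.5 bp long, against 484 bp for comparable ERVK intervals. Of the 202 members, 8 lay on loci of 5 kb or more, a count not taken for comparable ERVK intervals. The median ERVK member had 3.00 and 2.77 RPM in ΔcIDR, 0.750 and 0.882 RPM in KO and 2.76 and 2.61 RPM in WT. The KO medians lay below all others, and both ΔcIDR medians were above both WT medians. Taken interval by interval, however, the median ΔcIDR difference from WT was −0.076 log2 units, beside −0.23 over comparable ERVK intervals, and about as many ERVK members lay below WT as above it. In 54 ERVK members (26.7%) both ΔcIDR values were above both WT values, against 11.3% of comparable ERVK intervals. In 55 (27.2%) both were below, against 40.3%. The ΔcIDR mean was also at least 2-fold higher in 22 (10.9%), against 2.29%, and at least 2-fold lower in 18 (8.91%), against 6.62%.

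Of the 10 members with the highest ΔcIDR level relative to WT, 6 were ERVK and 2 were ERV1. The loci under 3 of these 6 ERVK intervals were each 678 bp long. One of them, chr3:51009007-51009237, had 8.005 and 9.38 RPM in ΔcIDR, 0.614 and 0.514 RPM in KO and 3.70 and 1.87 RPM in WT. Another, chr4:119787024-119787249, had 11.2 and 14.9 RPM in ΔcIDR, 0.341 and 0.588 RPM in KO and 4.99 and 4.41 RPM in WT. In both, the groups did not overlap and the order was ΔcIDR, WT, KO from high to low. The rule set KO below WT, and the pick by a high ΔcIDR level relative to WT largely set the rest. The adjusted p of ΔcIDR against WT was 0.123 and 0.126 in limma, above the threshold for a call. The member that was highest in ΔcIDR relative to WT had no repeat family. It was chr5:31287727-31287935, with 23.9 and 18.5 RPM in ΔcIDR, 1.5 and 1.69 RPM in KO and 6.04 and 2.69 RPM in WT. Its difference of 2.35 ± 0.34 (SE) log2 units had an adjusted p of 0.0128 in limma, which became 0.261 with no filter, 0.0937 without KO replicate 1, 0.0908 without KO replicate 2 and 0.0520 without WT replicate 2.

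ERV1 members were split in ΔcIDR. Their median was 3.97 and 3.66 RPM in ΔcIDR, 1.40 and 1.25 RPM in KO and 3.63 and 4.74 RPM in WT. In 18 of 46 (39.1%) both ΔcIDR values were above both WT values, against 19.6% of comparable ERV1 intervals, and in 19 (41.3%) both were below, against 39.3%. The 46 intervals fell on 39 loci, so some share an element.

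L1 members stood somewhat lower in ΔcIDR than in WT, as comparable L1 intervals did. The median L1 member had 1.73 and 1.19 RPM in ΔcIDR, 0.682 and 0.808 RPM in KO and 1.89 and 2.09 RPM in WT. Both ΔcIDR medians were below both WT medians, and the ΔcIDR libraries differed from each other. The median difference between ΔcIDR and WT was −0.49 log2 units, beside −0.41 over comparable L1 intervals, and both ΔcIDR values lay below both WT values in 132 of 313 (42.2%), against 41.9%. The L1 members sat on shorter loci than most, with a median of 2777 bp against 6364 bp for comparable L1 intervals. They fell on 279 loci. Satellite members had a median ΔcIDR difference from WT of −0.16 log2 units, beside −0.34 over comparable satellite intervals. Reads of such repeats can come from near-identical copies, and how the deposited counting treated them is not given in the sources used here.

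Members were shorter than the other intervals, with a median of 335 bp against 419 bp. Intervals below 300 bp were 42.2% of members and 31.9% of the other intervals. Together the members covered 0.961 Mb. No repeat base at all was found in 34.4% of members, against 44.8% of the other intervals.

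Along the genome, members lay near other members. The nearest comparable interval was itself a member for 824 members (38.4%), while the nearest comparable interval was a member for 1205 of the other intervals (3.96%). With gaps of at most 50 kb, 1042 members (48.5%) fell in clusters of 2 or more, and 630 (29.3%) in 155 clusters of 3 or more. There were 37 clusters of 5 or more, the largest with 13 members, and 1105 members stood alone. The 155 clusters spanned 724 comparable intervals, of which 94 were not members, and 101 clusters held members only. Those 94 intervals stood low in KO too, with a median of −0.80 log2 units relative to WT and 90 of 94 below 0, against 47.0% of all other intervals. In ΔcIDR the cluster medians relative to WT ranged from −1.10 to 1.06, and 154 of the 155 were above −1. Taken singly, 95.3% of all comparable intervals had a ΔcIDR mean within 2-fold of the WT mean, so that count does not set the clusters apart.

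The largest cluster was chr5:104897041-105007897, where all 13 comparable intervals over 111 kb were members. It held 6 L1 intervals, 3 on repeats listed without a family, 2 ERV1 and 2 without a repeat. Some neighbours share an element, such as L1 intervals on a locus of 5250 bp and the ERV1 intervals on a locus of 1995 bp. The 13 members are therefore not 13 separate elements. Summed over the cluster, the level was 435 and 463 RPM in ΔcIDR, 90.3 and 101 RPM in KO and 423 and 350 RPM in WT. KO was 0.247-fold of WT and ΔcIDR 1.16-fold, and the ΔcIDR libraries were above both WT libraries while both KO libraries were far below. The strongest member, chr5:104961120-104963332, had 140 and 165 RPM in ΔcIDR, 31.2 and 37.9 RPM in KO and 154 and 118 RPM in WT. Each of the 13 was between −2.93 and −1.64 log2 units from WT in KO and between −0.028 and 0.45 in ΔcIDR. A further cluster of 7 members, with all 7 comparable intervals, lay next to it at chr5:104785438-104844655 and was picked afterwards.

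**Figure D4:**
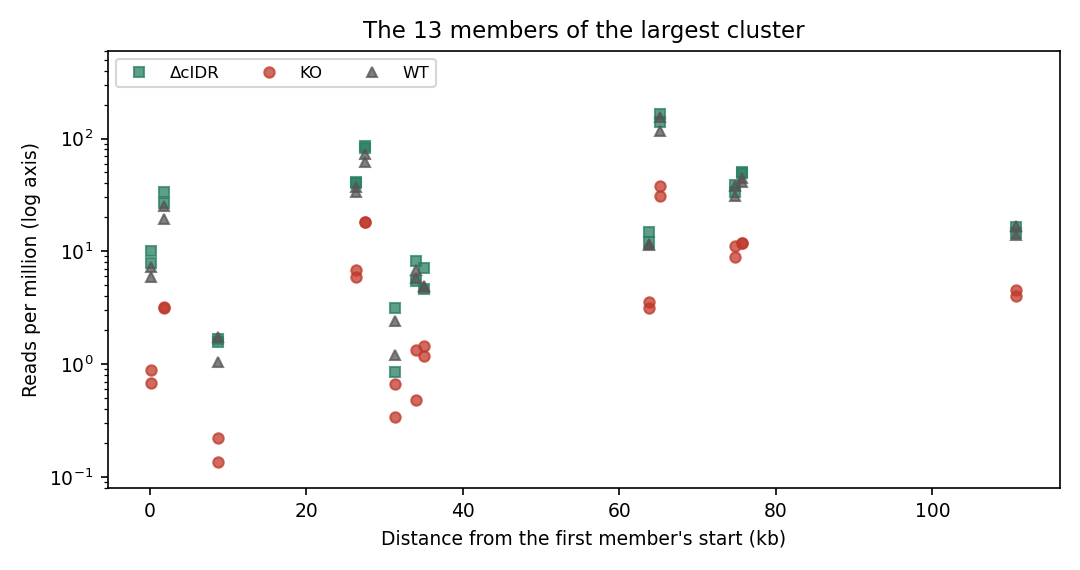
Level in RPM (log axis) of the 13 members of the largest cluster, in each of 6 libraries, against the distance in kb from the start of the first member. KO points lie below the WT points at every member, as the rule sets, and ΔcIDR points overlap or exceed the WT points at every member.

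The next clusters in size were on chromosome 7. At chr7:30518403-30584502, 12 of 13 comparable intervals were members, 8 of them without a repeat family. They summed to 92.9 and 100.3 RPM in ΔcIDR, 32.3 and 32.5 RPM in KO and 93.2 and 91.1 RPM in WT, so ΔcIDR lay about at the WT level. At chr7:44092331-44130525 all 11 comparable intervals were members, 8 without a repeat family and 3 of simple repeats. Their sums were 50.2 and 37.0 RPM in ΔcIDR, 16.7 and 16.2 RPM in KO and 42.9 and 58.6 RPM in WT. There the ΔcIDR and WT libraries overlapped and the KO libraries stood apart. Next in size was chr17:15343217-15461014, where 10 of 14 comparable intervals were members. A smaller cluster, picked after its values were seen, lay at chr10:78826409-78886018, with 9 L1 members among 17 comparable intervals. It had 133 and 94.0 RPM in ΔcIDR, 54.8 and 69.1 RPM in KO and 131 and 141 RPM in WT.

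Some megabases held many members. Between 19 and 20 Mb of chromosome 12, 23 of 51 comparable intervals were members, and between 104 and 105 Mb of chromosome 5 there were 19 of 41. The share of comparable intervals that were members was highest on chromosome 12 (9.98%) and chromosome 14 (9.85%). It was lowest on chromosome 6 (60 of 1722, 3.48%) and chromosome 8 (54 of 1845, 2.93%). Intervals of chromosomes 6 and 8 that were not members had median KO differences from WT of 0.33 and 0.27 log2 units, and their ΔcIDR differences were −0.25 and −0.26, while the KO medians of the other autosomes lay between −0.035 and 0.077. The part of this chromosome-wide shift in the low member share was not tested.

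Reads outside the intervals were low in KO around members too. Repeat loci that overlap no interval were summed by distance from the edge of each member or other interval, on a reads-per-million scale over repeat reads. Each locus counted once per distance range. A locus beside a member could also count at a longer distance from another member, so the longer ranges include loci near members. Within 1 kb of members they came to 2679 and 2608 in ΔcIDR, 1135 and 1165 in KO and 2223 and 2327 in WT. Both KO sums were below both WT sums, and both ΔcIDR sums were above them. The KO difference from WT was −0.98 log2 units at 0 to 1 kb, −0.68 at 5 to 10 kb, −0.32 at 20 to 50 kb and −0.15 at 50 to 100 kb. The ΔcIDR difference was 0.22, 0.12, 0.045 and 0.021 at the same distances. Around the other intervals the KO difference stayed between 0.013 and 0.051.

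**Figure D5:**
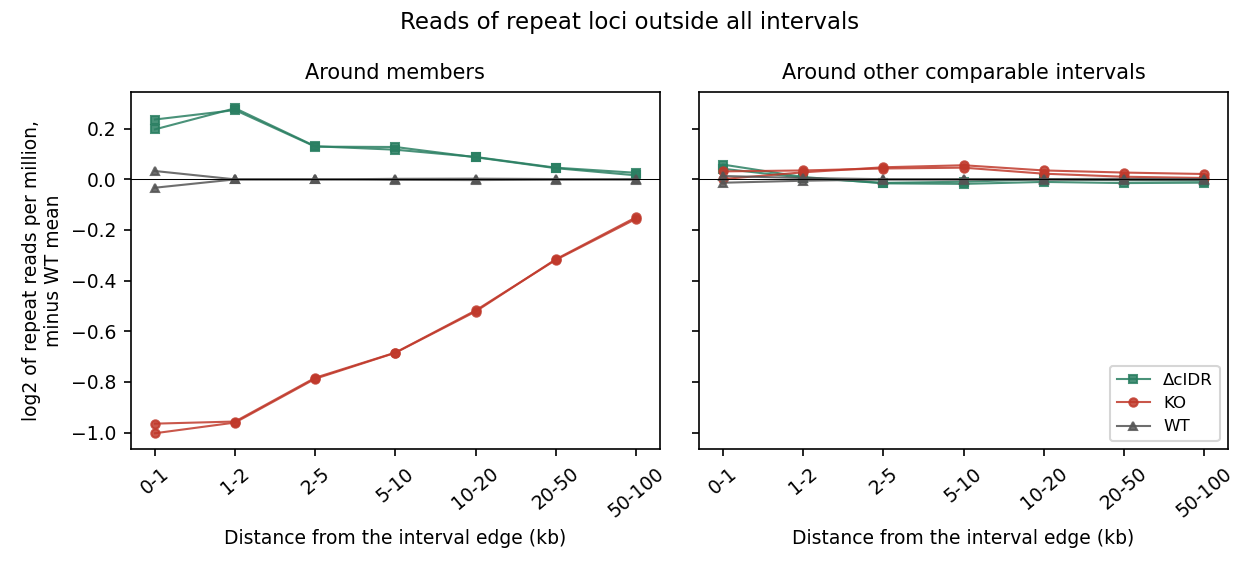
Reads of repeat loci outside all intervals, as log2 on a reads-per-million scale over repeat reads, minus the WT mean, by distance from the edge of members (left) and of other intervals (right). Each line is 1 library, and a locus can count in several distance ranges through different intervals. Around members the KO lines climb from about −0.98 at 0 to 1 kb to −0.15 at 50 to 100 kb, and the ΔcIDR lines lie above WT at every distance shown.

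Member by member, 1957 of the 2147 had a mean of at least 10 reads in repeat loci within 10 kb. Members that lie close together share such loci, so the counts below are not of separate observations. Both KO values were below both WT values around 1687 of these (86.2%), beside 35.9% of comparable intervals with as many reads. The median KO difference from WT was −0.90 log2 units around members, against 0.023 around the other intervals, and the fall was at least 2-fold around 846 members (43.2%), against 1.59% of the other intervals. For members standing alone the median was −0.66, and for members in clusters it was −1.11. The median ΔcIDR difference from WT around members was 0.088 log2 units, against −0.049 around the other intervals.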

How the data were processed

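Signal scaled by spike-in reads was deposited by the authors for 6 libraries over intervals and over repeat loci. Dividing a library's signal by its smallest nonzero value returned whole reads for 100% of values (tolerance 1e-06). Per the submitters' processing notes, the tools were bedtools, featureCounts, MACS2, Picard, SAMtools, HISAT2 and fastp, on GRCm39, with no version. Values of 2 reads (41951) outnumbered values of 1 read (22545), so counting error may be understated. All 12 samples of the series are labelled with a genotype, and 0 further columns were set aside. Coordinates are printed as deposited, and the sources used here do not give the base of their starts.

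The members and lists were chosen with earlier results of these data known. Reads were put on a reads-per-million scale over interval reads, 0.1 was added, and log2 was taken, which understates folds near 0. Limma 3.58.1 (R 4.3.3) fitted 1 mean per genotype over all 6 libraries with a trend, for 44396 intervals with a mean of at least 0.3 RPM, with Benjamini-Hochberg adjustment and calls at 0.05. edgeR 4.0.16 with its quasi-likelihood test and TMM factors ran on the whole reads as an alternative. Families were assigned with bedtools 2.31.1. Python 3.11.15, pandas 2.3.3 and matplotlib 3.10.9 were used. Named intervals were the 10 deepest KO falls, the 5 highest WT levels, the 10 highest and 10 lowest ΔcIDR differences from WT, the 3 on each side of the threshold and the members of the 3 largest clusters, of which a selection is given, and others are marked as picked afterwards. Intervals and floors (3 reads for a count of 0) cover counting error only. DNA sequences of the intervals were not used here, since the reference sequences are on another assembly.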

Additional observations from a re-analysis of the deposited data

How the results depend on the processing

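The member count of 2147 became 4791 on the deposited spike-in scale and 328 with a 4-fold fall. It was 1506 with a pseudocount of 0.5, of which 1441 were among the 2147, and 1476 with a WT level of at least 2 RPM. With 1 library left out it ranged from 2227 to 3113, of which 1668 to 1879 were among the 2147. Members higher in ΔcIDR than in WT (11) numbered 77 on the deposited scale, 25 with each library centred on its median, 27 in edgeR, 0 with no filter, 6 with a replicate block, 69 with a crossed replicate block added after seeing the data, and 5 to 9 with 1 library left out. Members lower in ΔcIDR than in WT (0) numbered 2 with a pseudocount of 0.5, 2 on the deposited scale, 1 when centred, 20 with the crossed block and 0 to 8 with 1 library left out. The ΔcIDR minus WT median of −0.10 became 0.49 on the deposited scale (all tested intervals 0.45) and 0.13 when centred (all tested 0.11), so its sign depends on the scale. It ranged from −0.20 to 0.025 with 1 library left out. Members higher in ΔcIDR than in KO (1255) numbered 1931 on the deposited scale, 628 with no filter, 1116 with the replicate block and 817 to 1244 with 1 library left out. Lower ones (0) numbered 1 with the crossed block and 0 to 4 with 1 library left out. The ΔcIDR minus KO median of 1.32 (all tested intervals −0.21) was 1.06 with a pseudocount of 0.5 (all tested −0.18). It was 2.27 on the deposited scale (all tested 0.76), 1.58 when centred (all tested 0.050) and 1.54 in edgeR (all tested −0.054). With a coverage of 80%, ERVK was 7.78% of members (2.91% of comparable intervals), satellite 1.35% (0.325%), simple and low-complexity 1.82% (0.776%) and no family 69.8% (71.1%). With 20%, simple and low-complexity was 11.04% (5.79%) and no family 44.7% (55.5%). Members in clusters were 31.1% with a gap of 10 kb and 67.2% with 250 kb. The flank difference in KO of −0.90 was −0.98 within 2 kb and −0.60 within 50 kb. The cause of these moves was not tested. For the counts of calls, the share of all tested intervals called is given only in the main fit and in edgeR. Under the other settings the counts cannot be set against all intervals, so they are not read as particular to members.

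Replicate numbers did not pair the libraries: deviations from the group means correlated at −0.092 between ΔcIDR and KO, −0.17 between ΔcIDR and WT and 0.029 between KO and WT. For the single intervals named, 837 values under the alternatives stayed on the same side of the threshold, 17 came to pass it, 10 no longer did, and 0 called values changed sign. Depth limits the weak members, since the median member had 15 reads in each KO library.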

Other observations

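Intervals outside the autosomes were left out by the rule. On the X chromosome 65 of 1309 intervals with a WT mean of at least 1 RPM (4.97%) met its other conditions, with a median ΔcIDR difference from WT of −0.099 log2 units. On the Y chromosome 11 of 101 (10.9%) did, with a median of −0.73, and on unplaced scaffolds 4 of 31 (12.9%) did, with −0.098.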
